A study of Homo sapiens with 12 samples.

Results

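The genes of excision, crosslink and recombination DNA repair were described in 2 ovarian cancer cell lines with and without paeonol (PAE), a phenolic compound of peony root bark. The list holds 45 genes, chosen by symbol: 12 of nucleotide excision repair, 10 of the Fanconi pathway, 10 of homologous recombination, 5 of translesion synthesis, and 8 damage kinases and break sensors. All 45 symbols were found among the 46350 named genes of the count files. SKOV3 is labelled a cisplatin-sensitive human epithelial ovarian cancer line and SKOV3/DDP a cisplatin-resistant one, which according to the study's methods was developed from SKOV3. Each line was sequenced untreated (SKOV3, SKOV3/DDP) and with PAE (SKOV3_Pae, SKOV3/DDP_Pae), with 3 libraries in each of the 4 groups. The labels give no dose or time of PAE, no vehicle for the untreated cells, and no exposure of the cells to cisplatin at harvest, so the 2 lines stand here for resistance in 1 pair of lines only. The design text speaks of biological and of experimental triplicates, so the p-values measure the spread between these libraries, which may in part be technical.

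Cisplatin joins neighbouring bases of a DNA strand or, more rarely, both strands. Nucleotide excision repair cuts out the stretch that holds a lesion in 1 strand. The Fanconi pathway unhooks a crosslink between the strands, translesion polymerases copy across what is left, and homologous recombination restores the broken chromosome from its sister. The kinases ATM and ATR and their targets CHEK1 and CHEK2 report the damage to the cell cycle. In ovarian cancer the pathway is known for inherited and acquired loss of BRCA1, BRCA2 and their partners, and for return of their function in resistant tumours.

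Several of these proteins work as fixed pairs whose genes differ widely in base composition. The fold changes below were related to base composition in the comparisons that hold untreated SKOV3, and hardly at all between the lines with PAE. The GC content of the members' transcripts ran from 36.25% in BRCA2 to 61.68% in MAD2L2, with a median of 42.87%. The median of all tested genes with a known value was 49.79%, and 31 of the 45 members lay below it. As an example, 90 bases of coding exon are shown for the 2 subunits of DNA polymerase zeta, REV3L (the catalytic subunit) and MAD2L2 (REV7), and for the 2 subunits of the nuclease that makes the 5′ cut in excision repair, ERCC4 (XPF) and ERCC1. Each is the window closest in GC content to its whole gene, read 5′ to 3′ on the gene's strand from GENCODE 29 transcripts (build GRCh38), with G and C in capitals.
REV3L: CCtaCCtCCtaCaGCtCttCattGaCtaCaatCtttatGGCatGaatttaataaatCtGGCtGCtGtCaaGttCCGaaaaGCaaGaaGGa
MAD2L2: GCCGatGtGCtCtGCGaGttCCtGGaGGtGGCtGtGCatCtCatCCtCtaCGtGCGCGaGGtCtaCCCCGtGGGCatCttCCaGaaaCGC
ERCC4: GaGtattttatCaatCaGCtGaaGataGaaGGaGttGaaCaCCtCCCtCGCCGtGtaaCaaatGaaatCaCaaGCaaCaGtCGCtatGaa
ERCC1: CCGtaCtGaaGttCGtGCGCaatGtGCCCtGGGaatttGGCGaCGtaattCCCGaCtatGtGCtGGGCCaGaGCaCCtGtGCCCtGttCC
The REV3L window lies in exon 5 of 33, chr6:111405473-111405562 on the minus strand, and 40% of its bases are G or C. The MAD2L2 window lies in exon 5 of 11, chr1:11680377-11680466 on the minus strand, with 61.11% G or C. The ERCC4 window lies in exon 2 of 11, chr16:13922031-13922120 on the plus strand, with 41.11%, and the ERCC1 window in exon 4 of 10, chr19:45420328-45420417 on the minus strand, with 57.78%.

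Libraries held between 14610008 and 18263479 counts, of which the 45 members took 0.130% to 0.274%. No member was at 0 counts in any library. The second SKOV3 library had 3 members and the third had 1 under 10 counts, and all 45 members passed the filter on low counts. Values below are CPM (read counts scaled to a common library size) adjusted with TMM factors, which put the bulk of the genes of each library on 1 level. Set against each gene's mean over the 12 libraries, log2 CPM rose with GC content in the 3 SKOV3 libraries (Spearman 0.783 to 0.813) and fell with it in the other 9 (-0.700 to -0.473), across 10436 genes that do not count as replicates. Untreated SKOV3 and this trend cannot be told apart, since no SKOV3 library lacked it. Every comparison is therefore given as counted and again with each library's own spline on GC content and length taken out (called the trend below). The comparison of the lines with PAE and that of PAE in SKOV3/DDP contain no untreated SKOV3 library.

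The lines were also set against cell type markers, in CPM of library totals. The 5 epithelial markers summed to at least 831 CPM in every library, most of it from KRT8 and KRT18. KRT19, EPCAM and CDH1 were at 4.56 to 5.72, 0.274 to 1.31 and 2.135 to 8.55 CPM in SKOV3. In SKOV3/DDP these markers were at 1103 to 1680, 297 to 307 and 360 to 568 CPM. ERBB2, which SKOV3 is known to carry in many copies, was at 183 to 220 CPM in SKOV3 and 29.7 to 131 in the other groups. The blood markers PTPRC and CD3E were at most 0.388 CPM. The 8 markers of other cell types (blood, fibroblast and endothelial) summed to 38.8 to 121 CPM, of which CD68 made 20.1 to 114. The ovarian markers were uneven: MSLN ran from 24.8 CPM in SKOV3_Pae to 435 in SKOV3/DDP_Pae, MUC16 was at most 13.3, WT1 was at most 0.189 CPM in every group, and PAX8 ran from 15.0 to 22.1 CPM in SKOV3 but from 3.31 to 6.05 in SKOV3/DDP. The 5 intestinal markers (CDX1, CDX2, VIL1, LGALS4 and CDH17) summed to 555 to 631 CPM in SKOV3/DDP and 199 to 285 in SKOV3/DDP_Pae, against 0.171 to 0.578 in SKOV3 and 0.194 to 0.494 in SKOV3_Pae. CDX1, CDX2, VIL1 and CDH17 were at 0 in all 3 SKOV3 libraries. The part of these differences between the lines in the values of the repair genes was not tested. Whether SKOV3/DDP shares its origin with SKOV3 was not tested either, so each line comparison is one between the libraries so labelled.

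**Figure D1:**
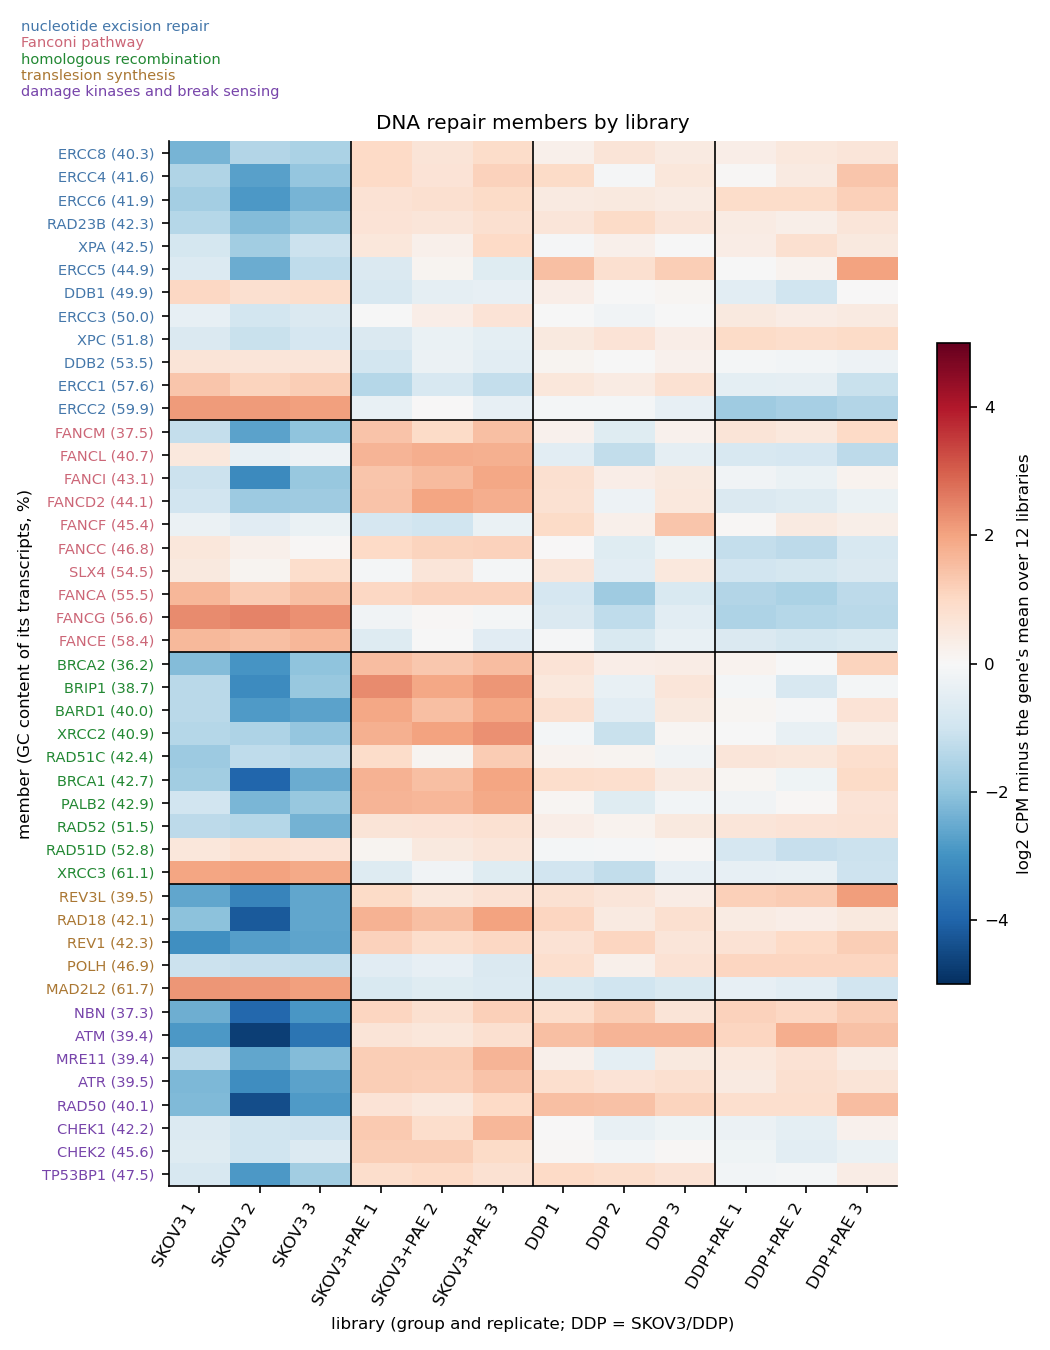
Level of each of the 45 members (rows, ordered by sub-pathway and rising GC content, which is given in percent) in each of the 12 libraries (columns), as log2 CPM minus the gene's mean over the libraries. Most members of low GC content are lowest, and most of high GC content highest, in the 3 SKOV3 libraries. FANCL and FANCC, which were higher in SKOV3 than in both groups of SKOV3/DDP, and XPC and RAD52, which had their lowest group means in SKOV3, break this pattern.

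Across the 5 comparisons, members were called at an adjusted p under 0.05 by edgeR's quasi-likelihood test, 2-sided, with Benjamini-Hochberg adjustment over 17133 genes. With PAE in SKOV3, 31 members were higher and 8 lower, where 42.6% of all tested genes were higher and 32.7% lower. With the trend removed, 12 were higher and 9 lower, against 26.1% and 21.1% of the 15089 genes with a GC value. With PAE in SKOV3/DDP, 1 member was higher and 7 lower (11.8% and 14.7% of all genes), or 4 and 10 with the trend removed (15.8% and 16.9%). Between the untreated lines, 32 members were higher and 11 lower in SKOV3/DDP (45.8% and 36% of all genes), or 10 and 21 with the trend removed (35.3% and 33.2%). Between the lines with PAE, 6 were higher and 20 lower in SKOV3/DDP (27.5% and 27.1% of all genes), or 7 and 21 with the trend removed (30.6% and 29.4%). The counts of this last comparison hardly moved with the trend, and those of the untreated lines turned from mostly higher to mostly lower.

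The size of the members' changes followed the same pattern. The median log2 fold change of the 45 members with PAE in SKOV3 was 2.34, against 0.48 over all tested genes, and 0.07 against 0.15 with the trend removed. Between the untreated lines it was 1.76 against 0.54, and -0.42 against 0.08 with the trend removed. Between the lines with PAE it was -0.39 against 0.06, and -0.43 against 0.06 with the trend removed. With PAE in SKOV3/DDP it was -0.15 against 0, and -0.28 with the trend removed. On library totals without TMM factors, the median of all genes itself moved to 1.36 with PAE in SKOV3, 0.16 with PAE in SKOV3/DDP, 1.23 between the untreated lines and -1.30 for the difference of the PAE effect, and all changes here are relative to the TMM scale. On totals, 6 members were higher and 3 lower with PAE in SKOV3/DDP, so the direction of that count depends on the scaling. Shares of all genes called on totals were not counted.

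Large contrasts lay within the protein pairs shown above. In SKOV3, PAE was followed by opposite changes of the polymerase zeta subunits. REV3L was at 4.88, 3.07 and 4.92 CPM in SKOV3 and 57.4, 43.8 and 48.7 in SKOV3_Pae, while MAD2L2 was at 456, 433 and 404 and 57.9, 64.6 and 61.5. Neither gene's groups overlapped, and REV3L rose by 3.54 ± 0.30 (log2, SE) where MAD2L2 fell, at -2.81 ± 0.20. The 2 changes lay 6.35 apart as counted and 0.18 apart with the trend removed, when neither was called (REV3L 0.04, MAD2L2 -0.14).

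The nuclease pair and a pair of recombination genes did the same. ERCC4 was at 5.05, 2.22 and 3.81 CPM in SKOV3 and 28.8, 23.1 and 31.9 in SKOV3_Pae, and ERCC1 at 209.9, 177 and 188 and 30.2, 47.1 and 35.4. ERCC4 rose by 2.92 ± 0.40 and ERCC1 changed by -2.35 ± 0.24, a gap of 5.27 that shrank to 0.86 with the trend removed, when only ERCC1 was still called (log2 fold change -0.87). RAD51C and XRCC3, which form a complex in recombination, had log2 fold changes of 2.31 ± 0.29 and -2.44 ± 0.26, and -0.35 and -0.06 with the trend removed. Pairs of like GC content were mixed. FANCI and FANCD2, which are ubiquitinated as a pair at crosslinks, had 43.07% and 44.15% GC and rose by 3.46 ± 0.39 and 3.21 ± 0.33 with PAE in SKOV3. BRCA1 and BARD1, the 2 subunits of a ubiquitin ligase, had 42.7% and 40% and rose by 4.22 ± 0.44 and 3.94 ± 0.44. With the trend removed, FANCI (1.01), FANCD2 (0.88) and BRCA1 (1.54) were called higher, and BARD1 (0.85, adjusted p = 0.0612 by edgeR) was not. Within the break-sensing complex, MRE11 minus RAD50 was -0.33 as counted and -0.43 with the trend removed, and RAD50 minus NBN -0.34 and -0.15. DDB1 and DDB2, the damage-binding pair (49.89% and 53.5%), did the reverse of the wide pairs, with a difference of -0.28 as counted and -2.10 with the trend removed. ERCC3 minus ERCC2, the 2 helicases of TFIIH, was 3.39 as counted and still 1.22 with the trend removed.

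Over the 45 members, the log2 fold change with PAE in SKOV3 ran against GC content with a Spearman correlation of -0.848, and that between the untreated lines with -0.753. Between the lines with PAE the value was 0.079. Over the 15089 genes with a GC value, the correlations of the same comparisons were -0.806, -0.587 and -0.008. With the trend removed the 3 values of the members were -0.201, 0.060 and 0.107. The points of each correlation share their libraries, so it is a description only. Among the 31 members of lower GC content than the median gene, PAE in SKOV3 was followed by 29 higher calls and 0 lower ones. Among the other 14 members it was followed by 2 higher and 8 lower. Of all tested genes, of any GC content, 42.6% were higher and 32.7% lower. Shares among all genes of the same GC range were not counted. Since all genes also ran against GC content (-0.806), the split is not a trait of the members.

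**Figure D2:**
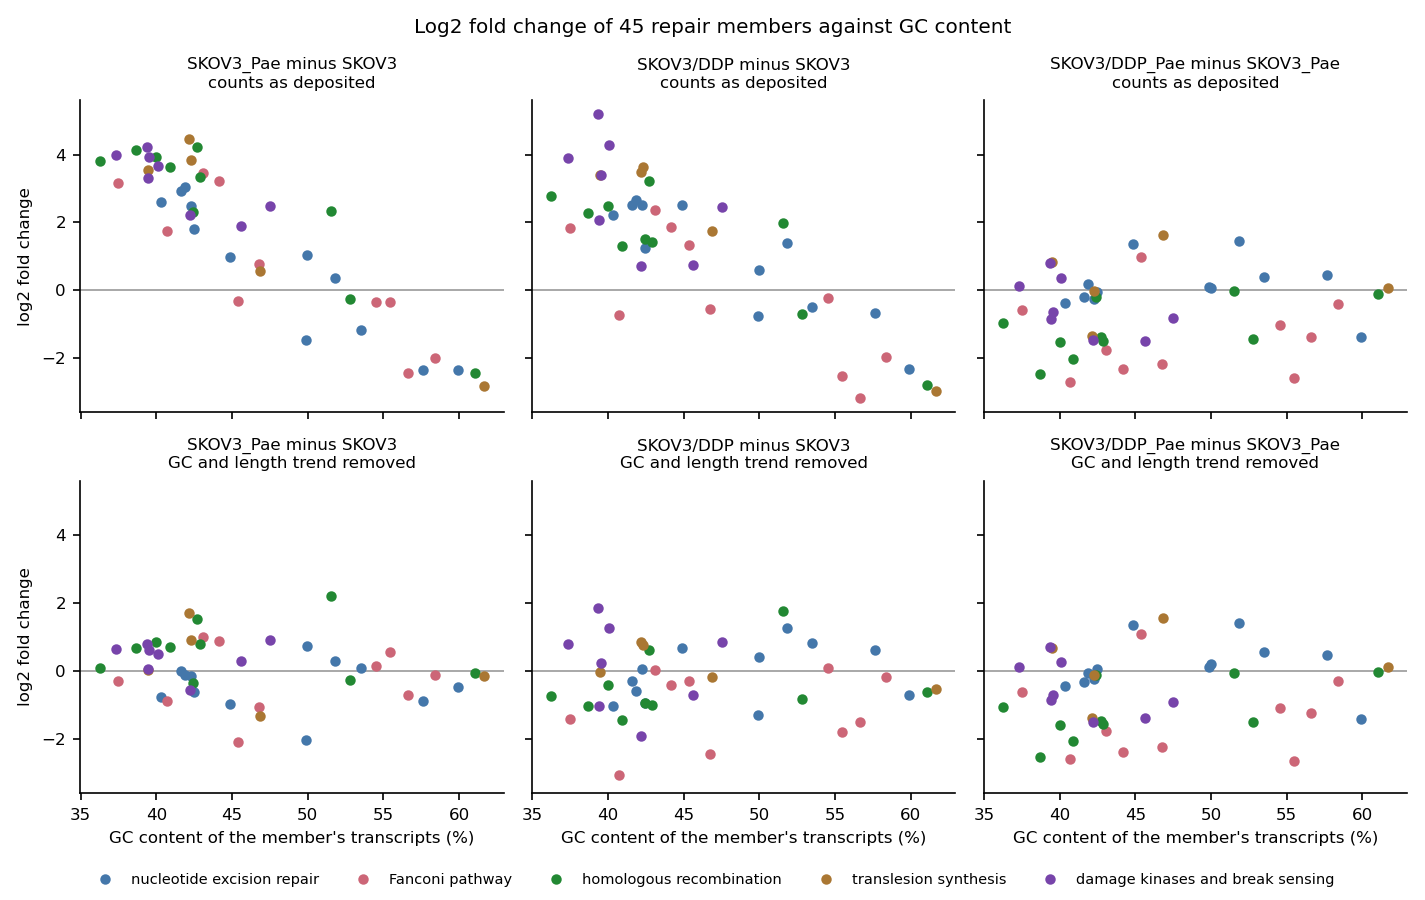
Log2 fold change of the 45 members (points, coloured by sub-pathway) against the GC content of their transcripts in percent, as counted (top) and with the GC and length trend removed (bottom), for 3 comparisons. As counted, the 2 comparisons that contain untreated SKOV3 slope down with GC content (Spearman -0.848 and -0.753), and the comparison of the lines with PAE is flat (0.079).

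The lines with PAE are compared first in detail, since this comparison holds no untreated SKOV3 library and its calls were the least moved by the trend. All 26 members called as counted were called with the same sign when the trend was removed, and 2 more were gained, DDB2 (higher) and TP53BP1 (lower). How often calls of all genes were kept was not counted. The counts by sub-pathway differed, where 27.1% of all tested genes were lower and 27.5% higher. Of the 10 Fanconi members 7 were lower and 1 higher in SKOV3/DDP_Pae, and of the 10 recombination members 7 were lower and 0 higher. Of the 8 kinases and sensors 4 were lower and 1 higher, of the 5 translesion members 1 was lower and 2 were higher, and of the 12 excision repair members 1 was lower and 2 were higher. Whether these shares differ between sub-pathways was not tested. Here and elsewhere in bulk RNA, fewer cells that express a gene and less of its RNA per cell cannot be told apart.

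Among the Fanconi members, the 7 lower ones were 4 subunits of the core complex that ubiquitinates FANCD2 (FANCA, FANCC, FANCG and FANCL), the FANCD2 and FANCI pair itself, and the nuclease scaffold SLX4, while the core subunit FANCF was higher. Summed, the 10 members ran from 343 to 440 CPM of library totals in SKOV3_Pae and from 120 to 137 in SKOV3/DDP_Pae. FANCL, the ubiquitin ligase subunit, was at 8.34, 4.43 and 4.92 CPM in SKOV3, 18.7, 20.6 and 19.7 in SKOV3_Pae, 3.98, 2.46 and 4.22 in SKOV3/DDP and 3.34, 3.24 and 2.37 in SKOV3/DDP_Pae. Its 3 SKOV3_Pae values all lay above the other 9, and the difference between the lines with PAE was -2.72 ± 0.33 (adjusted p = 6.00e-06 by edgeR), or -2.60 with the trend removed. FANCA, a scaffold of the core complex, was at 85.5, 66.6 and 76.96 CPM in SKOV3, 56.1, 61.5 and 61.03 in SKOV3_Pae, 15.2, 7.89 and 16.3 in SKOV3/DDP and 9.86, 9.07 and 11.1 in SKOV3/DDP_Pae. It was low in both groups of SKOV3/DDP, with no overlap with SKOV3 in either condition, and the difference with PAE was -2.58 ± 0.26 (adjusted p = 8.68e-07 by edgeR). FANCD2 was at 6.74, 3.66 and 3.81 CPM in SKOV3, 34.5, 51.1 and 45.99 in SKOV3_Pae, 22.03, 10.9 and 18.9 in SKOV3/DDP and 7.95, 8.41 and 10.2 in SKOV3/DDP_Pae. SKOV3_Pae was highest and did not overlap any other group, and SKOV3/DDP_Pae lay 2.31 ± 0.31 below it on the log2 scale (adjusted p = 1.87e-05 by edgeR).

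FANCC, FANCG, FANCI and SLX4 made up the rest of the 7 lower members. FANCC, another core subunit, was at 14.5, 11.8 and 10.3 CPM in SKOV3, 19.6, 21.4 and 22.2 in SKOV3_Pae, 9.98, 6.503 and 8.57 in SKOV3/DDP and 4.37, 3.99 and 5.72 in SKOV3/DDP_Pae. FANCC was lowest in SKOV3/DDP_Pae, where its 3 values lay below the other 9. FANCG, which binds FANCA, differed by -1.37 ± 0.21 (adjusted p = 6.78e-05 by edgeR). FANCF, the adaptor of the core complex, went the other way, by 0.98 ± 0.31, with 4.42, 4.01 and 6.26 CPM in SKOV3_Pae and 8.34, 10.9 and 9.68 in SKOV3/DDP_Pae. That call was lost without either of the first 2 SKOV3_Pae libraries (0.90 and 0.84) and without the second SKOV3/DDP_Pae library (0.87). FANCE and FANCM, the members of highest and lowest GC content in the pathway, were not called in this comparison. FANCE, a bridge to FANCD2, was at 48.2, 44.3 and 49.6 CPM in SKOV3, 9.88, 15.2 and 10.4 in SKOV3_Pae, 15.1, 9.28 and 11.9 in SKOV3/DDP and 9.52, 8.46 and 9.08 in SKOV3/DDP_Pae. FANCM, the translocase that recruits the complex to DNA, was at 3.28, 1.19 and 1.86 CPM in SKOV3, 20.1, 14.8 and 21.7 in SKOV3_Pae, 8.88, 4.92 and 8.88 in SKOV3/DDP and 11.8, 10.8 and 14.9 in SKOV3/DDP_Pae. FANCE was highest and FANCM lowest in the 3 SKOV3 libraries, with no overlap with another group. FANCC, FANCI and FANCL overlap genes on the opposite strand that were counted at a higher level (AOPEP, POLG and VRK2), and the strand used in counting is not given in the sources used here. FANCA overlaps ZNF276 on the opposite strand, counted at 83.65% of its own level.

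**Figure D3:**
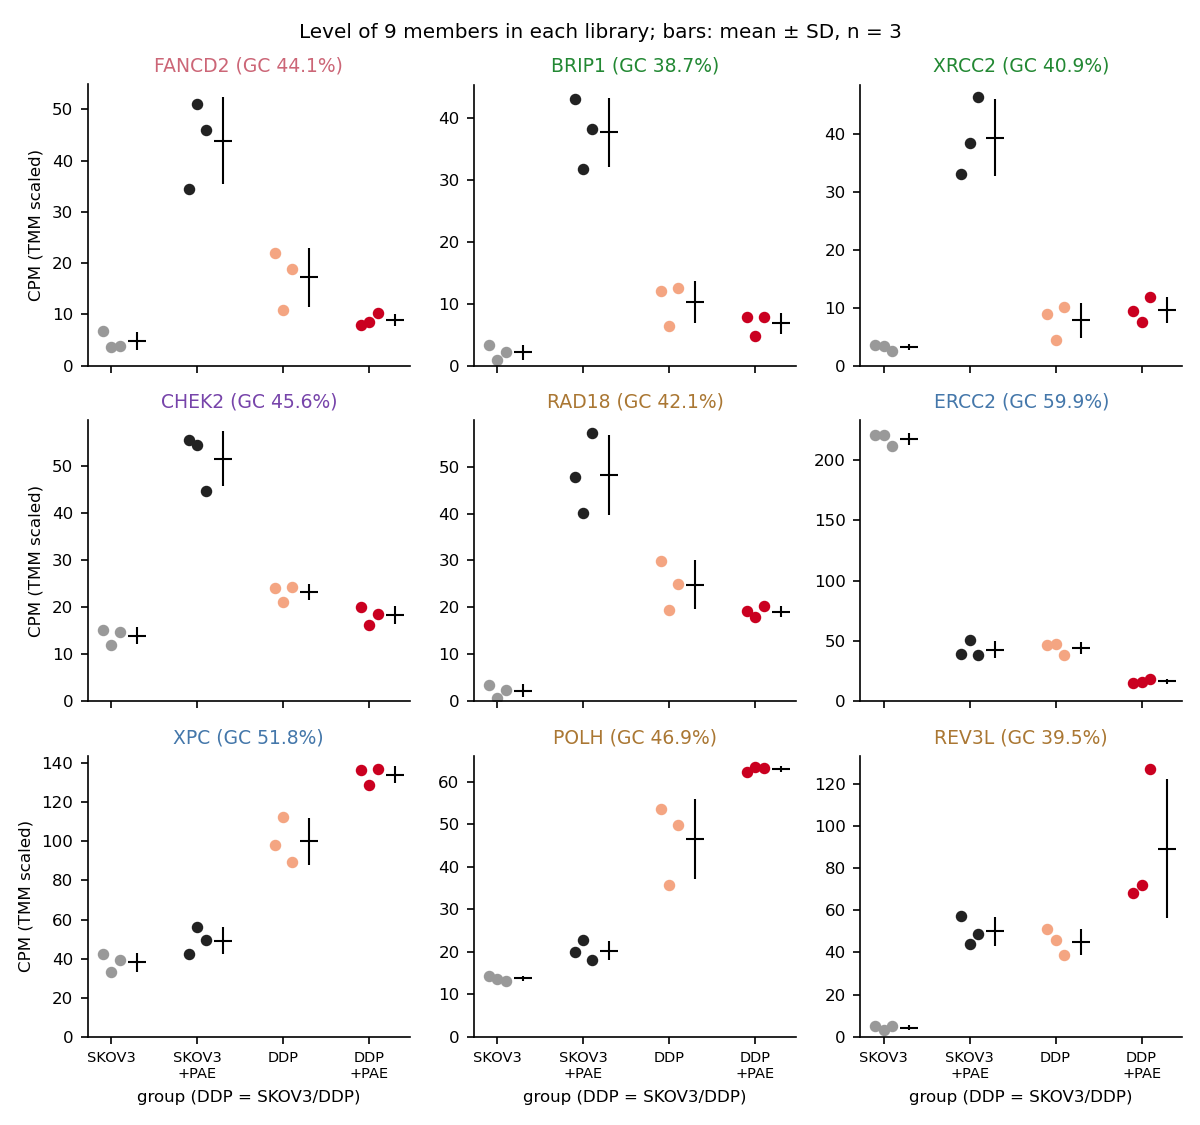
CPM of 9 members in each library (points), with the mean and SD of the 3 libraries of a group beside them. FANCD2, BRIP1, XRCC2, CHEK2 and RAD18 are highest in SKOV3_Pae, ERCC2 is lowest in SKOV3/DDP_Pae, and XPC and POLH are highest in the 2 groups of SKOV3/DDP, though for POLH the difference between the untreated lines was not called with the trend removed (1.76 to -0.19).

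Among the recombination members, 7 of 10 were lower in SKOV3/DDP_Pae than in SKOV3_Pae: BRCA1 and its partner BARD1, BRCA2, PALB2, which joins BRCA1 to BRCA2, the helicase BRIP1, and the partners XRCC2 and RAD51D. Summed, the 10 members ran from 368 to 460 CPM of library totals in SKOV3_Pae and from 172 to 217 in SKOV3/DDP_Pae. BRIP1 was at 3.28, 0.937 and 2.204 CPM in SKOV3, 43, 31.8 and 38.2 in SKOV3_Pae, 12, 6.44 and 12.5 in SKOV3/DDP and 7.799, 4.79 and 7.81 in SKOV3/DDP_Pae. Its SKOV3_Pae libraries were highest, with no overlap with any group, and the difference between the lines with PAE was -2.47 ± 0.37 (adjusted p = 5.48e-05 by edgeR). XRCC2 was at 3.55, 3.32 and 2.54 CPM in SKOV3, 33.2, 38.5 and 46.4 in SKOV3_Pae, 8.88, 4.42 and 10.2 in SKOV3/DDP and 9.52, 7.47 and 11.9 in SKOV3/DDP_Pae. The 2 groups of SKOV3/DDP overlapped each other and lay below SKOV3_Pae, by 2.03 ± 0.31 on the log2 scale with PAE (adjusted p = 5.91e-05 by edgeR). BARD1 was at 4.08, 1.45 and 1.61 CPM in SKOV3, 39.6, 29.8 and 40.1 in SKOV3_Pae, 18.3, 7.197 and 14.5 in SKOV3/DDP and 11.1, 10.1 and 16.8 in SKOV3/DDP_Pae. It differed by -1.53 ± 0.38 with PAE (adjusted p = 0.00343 by edgeR), and the 2 groups of SKOV3/DDP overlapped.

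BRCA2, a central protein of recombination and the member of lowest GC content, was at 2.93, 1.704 and 3.22 CPM in SKOV3, 37.9, 33.5 and 37.99 in SKOV3_Pae, 20.6, 16.4 and 16.7 in SKOV3/DDP and 14.7, 12.97 and 27.9 in SKOV3/DDP_Pae. The values of SKOV3_Pae lay above the other 9, those of SKOV3 below, and SKOV3/DDP and SKOV3/DDP_Pae overlapped in between. XRCC3, of 61.06% GC, was at 160.2, 163 and 149.5 CPM in SKOV3, 25.6, 35.6 and 26.2 in SKOV3_Pae, 20.7, 17.4 and 30.1 in SKOV3/DDP and 30.4, 31.4 and 19.7 in SKOV3/DDP_Pae. SKOV3 lay far above the other 3 groups, which overlapped. RAD51D, which pairs with XRCC2, was at 24.3, 27.4 and 25.8 CPM in SKOV3, 17.8, 22.6 and 24.5 in SKOV3_Pae, 15.2, 15.6 and 16.8 in SKOV3/DDP and 9.17, 7.28 and 7.65 in SKOV3/DDP_Pae. Its 3 SKOV3/DDP_Pae values were the lowest of the 12, and it differed between the lines with PAE by -1.43 ± 0.22 (adjusted p = 5.66e-05 by edgeR). RAD51C, XRCC3 and RAD52, a mediator that works apart from BRCA2, were not called between the lines with PAE in either fit. XRCC3 and RAD52 overlap genes of the opposite strand counted at a higher level (KLC1 for XRCC3, and WNK1 and ERC1 for RAD52).

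Among the excision repair members, the damage sensor XPC was higher and the helicase ERCC2 lower in SKOV3/DDP_Pae. XPC, which finds the distorted helix, was at 42.3, 32.9 and 39.2 CPM in SKOV3, 42.2, 55.96 and 49.6 in SKOV3_Pae, 98.04, 113 and 89.2 in SKOV3/DDP and 137, 129 and 137 in SKOV3/DDP_Pae. Both groups of SKOV3/DDP lay above both of SKOV3 with no overlap, and the difference with PAE was 1.45 ± 0.19 (adjusted p = 1.70e-05 by edgeR) and 1.41 with the trend removed. ERCC2 (XPD), a helicase of TFIIH, was at 221, 221 and 212 CPM in SKOV3, 39.3, 50.7 and 38.1 in SKOV3_Pae, 46.7, 47.1 and 37.95 in SKOV3/DDP and 14.9, 15.8 and 18.4 in SKOV3/DDP_Pae. SKOV3/DDP_Pae was lowest and overlapped no group, and lay 1.38 ± 0.20 below SKOV3_Pae on the log2 scale (adjusted p = 2.88e-05 by edgeR). ERCC3 (XPB), the other helicase of TFIIH, was at 41.2, 28.7 and 33.1 CPM in SKOV3, 53.7, 69.6 and 88.9 in SKOV3_Pae, 54.4, 48.2 and 53.9 in SKOV3/DDP and 77.3, 71.5 and 74.6 in SKOV3/DDP_Pae. It was not called between the lines with PAE in either fit.

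ERCC5 (XPG), the nuclease of the 3′ cut, was also called in this comparison, at 0.887, 0.256 and 0.593 CPM in SKOV3, 0.872, 1.57 and 0.947 in SKOV3_Pae, 4.04, 2.53 and 3.37 in SKOV3/DDP and 1.42, 1.64 and 5.78 in SKOV3/DDP_Pae. Its difference of 1.37 ± 0.55 (adjusted p = 0.0485 by edgeR) rested on the third SKOV3/DDP_Pae library, without which it was 0.44 and not called. The call was also lost without the first or the third SKOV3_Pae library (1.20 and 1.24), and without the third SKOV3 or the first or the third SKOV3/DDP library (1.37, 1.36 and 1.36). ERCC8 (CSA), of the branch that serves transcribed genes and the lowest in GC of the 12, was at 2.13, 3.83 and 3.47 CPM in SKOV3, 21.1, 16.4 and 19.7 in SKOV3_Pae, 12.6, 16.5 and 14.4 in SKOV3/DDP and 13.3, 14.99 and 15.8 in SKOV3/DDP_Pae, with SKOV3 apart from the rest and overlap among the other 3 groups except between SKOV3_Pae and SKOV3/DDP_Pae. XPA, ERCC1, ERCC4, ERCC6, ERCC8, DDB1 and RAD23B were not called between the lines with PAE in either fit, with log2 fold changes from -0.37 to 0.46 as counted. XPA overlaps NCBP1 on the opposite strand, which was counted at a higher level.

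Among the translesion members, POLH, the polymerase that copies across cisplatin adducts, was at 14.3, 13.6 and 13.2 CPM in SKOV3, 20.05, 22.7 and 18.2 in SKOV3_Pae, 53.7, 35.8 and 49.9 in SKOV3/DDP and 62.3, 63.6 and 63.2 in SKOV3/DDP_Pae. Both groups of SKOV3/DDP were higher than both of SKOV3, and the difference with PAE was 1.63 ± 0.20 (adjusted p = 8.04e-06 by edgeR) and 1.57 with the trend removed. Between the untreated lines POLH differed by 1.76 ± 0.21 as counted, and by -0.19, not called, with the trend removed. GTPBP2, on the opposite strand, overlaps POLH and was counted at a higher level. RAD18, the ligase that ubiquitinates PCNA to call these polymerases, was at 3.46, 0.767 and 2.37 CPM in SKOV3, 47.8, 40.1 and 57.1 in SKOV3_Pae, 29.99, 19.5 and 25.04 in SKOV3/DDP and 19.1, 18 and 20.2 in SKOV3/DDP_Pae. The SKOV3_Pae libraries were highest and SKOV3/DDP_Pae lay 1.34 ± 0.33 below them (log2; adjusted p = 0.00297 by edgeR). REV3L was at 50.9, 45.6 and 38.6 CPM in SKOV3/DDP and 68.4, 71.99 and 127 in SKOV3/DDP_Pae, and was higher in SKOV3/DDP_Pae than in SKOV3_Pae by 0.84 ± 0.26 (adjusted p = 0.0133 by edgeR). The third SKOV3/DDP_Pae library was far above the other 2, and without it the difference was 0.49 and not called, as it was without the second SKOV3_Pae library (0.73). MAD2L2 was at 58.1, 49.2 and 56.9 CPM in SKOV3/DDP and 74.1, 66.96 and 49.9 in SKOV3/DDP_Pae, and neither it nor REV1, a scaffold of the translesion polymerases, was called between the lines with PAE. REV1 overlaps EIF5B on the opposite strand, counted at a higher level.

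Among the kinases and sensors, both checkpoint kinases were lower in SKOV3/DDP_Pae. CHEK2, a target of ATM, was at 15.1, 11.8 and 14.7 CPM in SKOV3, 55.5, 54.4 and 44.8 in SKOV3_Pae, 24.05, 21.1 and 24.4 in SKOV3/DDP and 20.01, 16.2 and 18.5 in SKOV3/DDP_Pae. SKOV3_Pae was highest with no overlap, and the difference between the lines with PAE was -1.50 ± 0.20 (adjusted p = 1.86e-05 by edgeR). CHEK1, a target of ATR, was at 18, 14.3 and 13.9 CPM in SKOV3, 70.2, 52.9 and 91.4 in SKOV3_Pae, 28.7, 22.3 and 24.9 in SKOV3/DDP and 23.4, 20.2 and 33.3 in SKOV3/DDP_Pae. SKOV3_Pae again lay above the other 9 libraries, by 1.48 ± 0.25 over SKOV3/DDP_Pae (log2; adjusted p = 0.000168 by edgeR). MRE11, the nuclease of the complex that binds broken ends, was at 7.54, 3.15 and 4.24 CPM in SKOV3, 44.04, 43.98 and 61.4 in SKOV3_Pae, 22.5, 13.6 and 26.4 in SKOV3/DDP and 27.1, 31.01 and 25.3 in SKOV3/DDP_Pae.

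The difference of MRE11 between the lines with PAE was -0.84 ± 0.30 (adjusted p = 0.0285 by edgeR), and it was not called without the third SKOV3_Pae library (-0.67) or without the first or the third SKOV3/DDP_Pae library (-0.82 and -0.78). Its partners RAD50 and NBN were not called. NBN, the member of lowest GC content in this group, was at 2.13, 0.767 and 1.53 CPM in SKOV3, 24.1, 20.2 and 26.2 in SKOV3_Pae, 21.3, 27.2 and 17.9 in SKOV3/DDP and 25.3, 23.8 and 27.9 in SKOV3/DDP_Pae, with SKOV3 apart and overlap among the other 3 groups. TP53BP1, which steers repair away from recombination and is the highest in GC of the 8, was at 19.3, 4.69 and 10.2 CPM in SKOV3, 63.3, 68.4 and 58.03 in SKOV3_Pae, 68.9, 62.9 and 57.05 in SKOV3/DDP and 30.9, 31.7 and 44.2 in SKOV3/DDP_Pae. Its 3 SKOV3/DDP_Pae values lay below those of SKOV3_Pae and SKOV3/DDP, and it was called between the lines with PAE only with the trend removed (-0.93). The 2 apical kinases went apart: ATM was higher in SKOV3/DDP_Pae by 0.82 ± 0.29 and ATR lower, at -0.65. The call of ATR was lost without the third SKOV3_Pae (-0.58) or the first SKOV3/DDP_Pae library (-0.57). The call of ATM was lost without the first or second SKOV3_Pae library (0.79 and 0.75) or without the second SKOV3/DDP_Pae library (0.62). NBN overlaps OSGIN2 on the opposite strand, counted at a higher level. MRE11, TP53BP1 and ATM overlap ANKRD49, TUBGCP4 and NPAT on the opposite strand, counted at 62.87%, 48.28% and 47.62% of the member's own level.

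**Figure D4:**
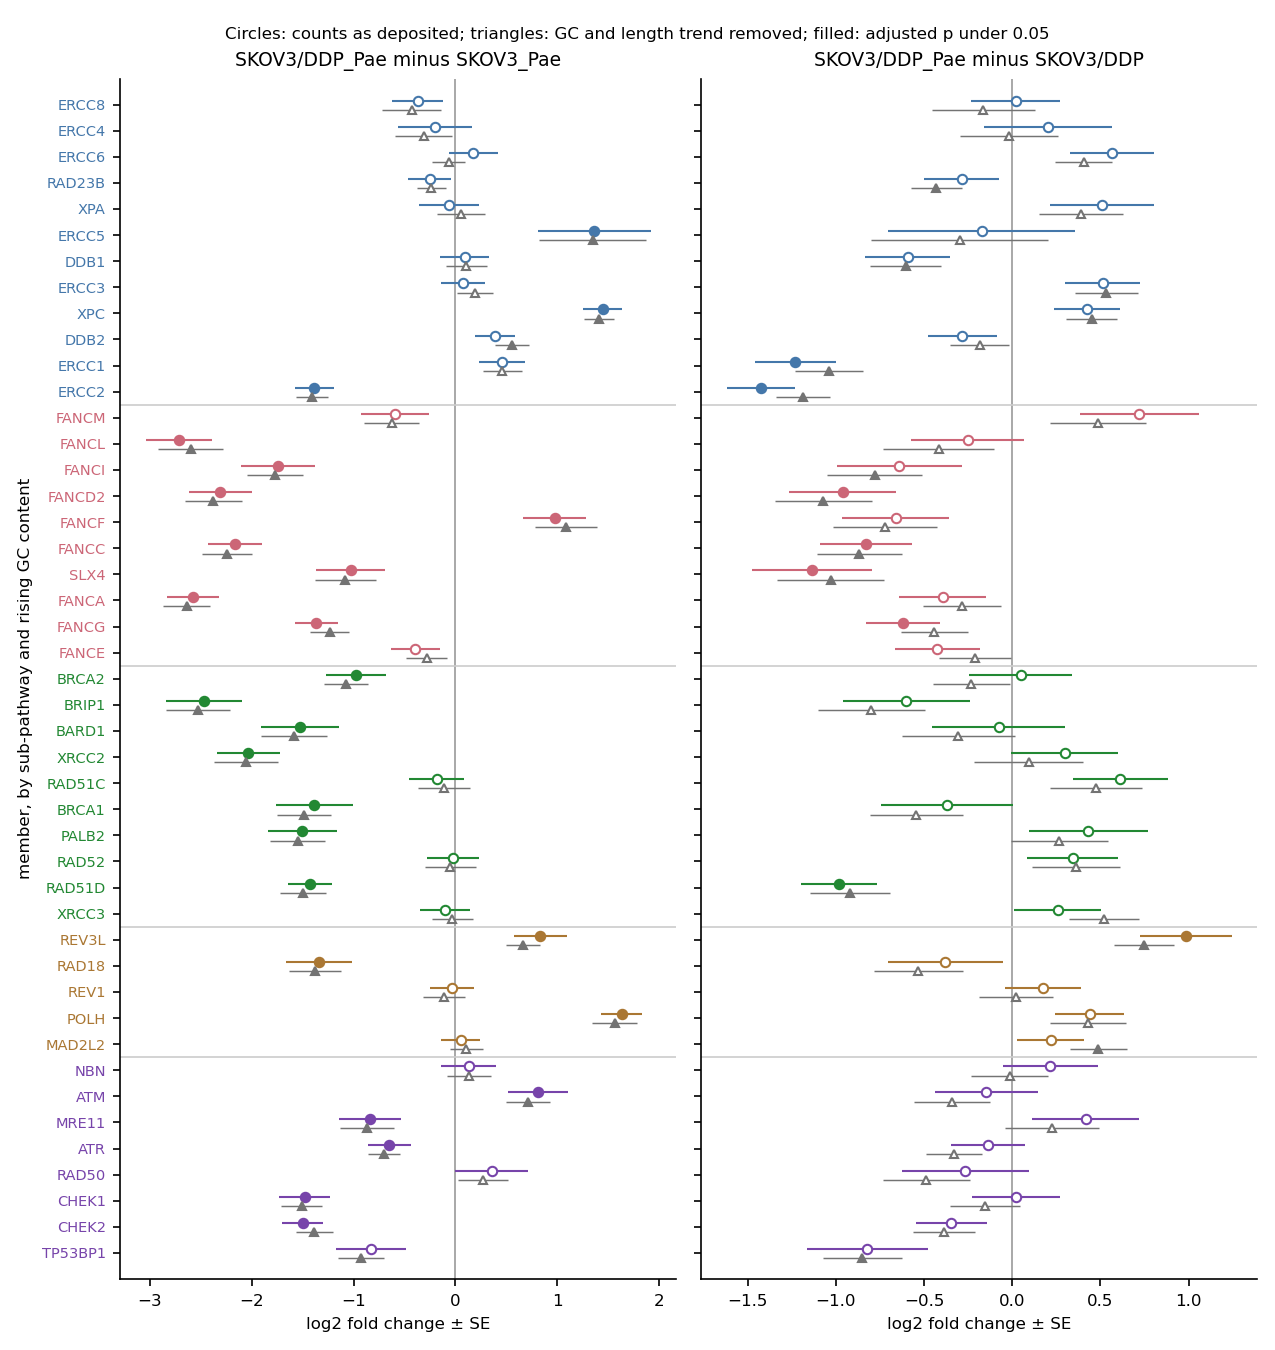
Log2 fold change ± SE of each member between the lines with PAE (left) and with PAE in SKOV3/DDP (right), the 2 axes having different ranges. Circles are the counts as deposited, triangles the fit with the GC and length trend removed, and filled marks passed an adjusted p under 0.05. Most filled marks of the Fanconi and recombination members lie left of 0 in the left panel. There 7 of 10 each were lower, against 27.1% of all tested genes, and circle and triangle lie close together.

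Other genes of the same pathways, taken from a list of 62 of which 61 could be tested, were described by count. Between the lines with PAE 33 were lower and 10 higher in SKOV3/DDP_Pae (27.1% and 27.5% of all genes). With the trend removed, 34 were lower and 9 higher (29.4% and 30.6%). The lower ones included UBE2T, the conjugating enzyme of FANCL (-1.26 ± 0.24). The higher ones included HUS1, of the clamp that activates ATR (2.23 ± 0.26), and CUL4A, of the ligase that holds DDB1 and DDB2 (1.20 ± 0.19). These 3 were chosen after their values were seen.

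Between the lines with PAE, a list of S phase and mitosis genes moved in the same direction as most Fanconi and recombination members. Of its 14 genes, 12 were lower in SKOV3/DDP_Pae than in SKOV3_Pae and 0 higher, in both fits. As counted, 27.1% of all genes were lower and 27.5% higher. The summed level of the 14 genes was 662 to 809 CPM of library totals against 2586 to 4060. It was 1865 to 2146 in SKOV3 and 613 to 1648 in SKOV3/DDP. Of 10 targets of p53, which include no member, 8 were higher and 0 lower in SKOV3/DDP_Pae, in both fits. As background, XPC, DDB2 and POLH are also genes that p53 can induce. The part of either list in the values of the members was not tested.

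Promoters were searched for short motifs as a description of what the members share apart from their roles. The RefSeq table (build GRCh38.p14) held 300 bases around the start of 43 of the 45 members, most of them before it. That start lay within 1000 bases of the gene start in the count files for 38 of the 43, and farther off for CHEK1, RAD18, MRE11, RAD52 and BRCA1, whose annotated starts differ. The E2F motif TTTCCCGC was found on either strand in 4 of them (9.30%) and in 2.16% of the 15509 promoters of protein-coding genes. It was in XPC, FANCC, FANCD2 and XRCC2. The second E2F motif, TTTGGCGC, was in 0 of 43 members (0.916% of all promoters). The cell cycle homology motif TTTGAA was in 6.98% of the members' promoters (12.1% of all), the CCAAT box ATTGG in 34.9% (36.5% of all) and the GC box GGGCGG in 74.4% (59.1% of all), each on both strands. The 4 promoters with an E2F motif are shown 5′ to 3′ on the gene's strand, with the motif in capitals.
FANCD2: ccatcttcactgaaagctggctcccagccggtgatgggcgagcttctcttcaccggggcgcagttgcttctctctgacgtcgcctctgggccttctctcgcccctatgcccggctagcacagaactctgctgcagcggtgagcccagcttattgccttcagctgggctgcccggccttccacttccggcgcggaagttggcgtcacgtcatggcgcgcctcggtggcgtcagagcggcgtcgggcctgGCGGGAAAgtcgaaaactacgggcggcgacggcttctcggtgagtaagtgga
XRCC2: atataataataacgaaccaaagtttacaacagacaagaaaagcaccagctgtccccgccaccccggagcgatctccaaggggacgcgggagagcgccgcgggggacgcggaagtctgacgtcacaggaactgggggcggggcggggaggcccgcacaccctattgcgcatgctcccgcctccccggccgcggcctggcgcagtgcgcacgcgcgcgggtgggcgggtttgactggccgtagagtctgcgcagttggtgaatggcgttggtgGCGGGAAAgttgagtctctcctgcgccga
FANCC: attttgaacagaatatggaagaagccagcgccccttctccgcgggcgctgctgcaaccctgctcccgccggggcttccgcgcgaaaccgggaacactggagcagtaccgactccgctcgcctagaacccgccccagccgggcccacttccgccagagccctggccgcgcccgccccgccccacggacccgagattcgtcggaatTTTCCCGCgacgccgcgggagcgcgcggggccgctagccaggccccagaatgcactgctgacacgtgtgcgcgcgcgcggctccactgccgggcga
XPC: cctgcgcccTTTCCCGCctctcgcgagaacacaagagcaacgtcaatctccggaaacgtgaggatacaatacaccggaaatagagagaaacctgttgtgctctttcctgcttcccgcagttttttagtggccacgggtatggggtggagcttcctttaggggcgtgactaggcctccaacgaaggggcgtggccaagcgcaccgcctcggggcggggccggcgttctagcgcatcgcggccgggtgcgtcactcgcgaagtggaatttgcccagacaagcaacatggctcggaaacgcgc
The FANCD2 window is chr3:10026187-10026486 on the plus strand, and the motif begins at base -2 from the gene's start. The XRCC2 window is chr7:152676092-152676391 on the minus strand, with the motif at base 21, the FANCC window chr9:95317660-95317959 on the minus strand, with the motif at base -46, and the XPC window chr3:14178552-14178851 on the minus strand, with the motif at base -241. FANCD2, XRCC2 and FANCC were lower and XPC higher in SKOV3/DDP_Pae than in SKOV3_Pae, so the motif was found at members of both directions.

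With PAE in SKOV3/DDP, the 8 members called (where 11.8% of all genes were higher and 14.7% lower) were 2 of the 12 of excision repair, 4 of the 10 Fanconi members, 1 of the 10 of recombination, 1 of the 5 of translesion synthesis and 0 of the 8 kinases and sensors, and these shares were not tested against each other. The 2 largest changes were of ERCC2, from 46.7, 47.1 and 37.95 to 14.9, 15.8 and 18.4 CPM, and ERCC1, from 119, 109 and 136 to 57.2, 59.9 and 37.9. Neither gene's groups overlapped, and the log2 fold changes were -1.43 ± 0.20 (adjusted p = 0.000239 by edgeR) and -1.23 ± 0.23 (adjusted p = 0.00165). With the trend removed they were -1.19 and -1.04. The same 2 genes also fell with PAE in SKOV3 in both fits. RAD51D fell from 15.2, 15.6 and 16.8 to 9.17, 7.28 and 7.65 CPM, with no overlap and a log2 fold change of -0.98 ± 0.22 (adjusted p = 0.00471 by edgeR).

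SLX4, the scaffold of the crosslink nucleases, was at 11.3, 8.86 and 14.6 CPM in SKOV3, 7.55, 12.3 and 7.42 in SKOV3_Pae, 12.3, 5.62 and 11.4 in SKOV3/DDP and 4.12, 4.37 and 4.896 in SKOV3/DDP_Pae. All 3 SKOV3/DDP_Pae values lay below the other 9, and the change with PAE in SKOV3/DDP was -1.14 ± 0.34 (adjusted p = 0.0238 by edgeR). FANCD2 changed by -0.96 ± 0.30 and FANCC by -0.83 ± 0.26, with no overlap between the groups of SKOV3/DDP. These 3 Fanconi calls were lost without the first or the third SKOV3/DDP library and without the first or second SKOV3/DDP_Pae library, when the log2 fold changes lay from -1.09 to -0.65. They were lost too on library totals without TMM factors (-0.99, -0.81 and -0.68). FANCG was the seventh member called lower and was not called with the trend removed. REV3L was the only member called higher, by 0.98 ± 0.26 (adjusted p = 0.0129 by edgeR), and was not called without the third SKOV3/DDP (0.91) or the third SKOV3/DDP_Pae library (0.68). Without the 3 untreated SKOV3 libraries in the fit, 11 members were called in place of 8, the 8 among them. The count was 4, 3, 4 and 4 without the first or the third SKOV3/DDP and the first or second SKOV3/DDP_Pae library. No recombination member other than RAD51D was called in either fit, and of the 8 kinases and sensors only TP53BP1 was, with the trend removed. In the list of other pathway genes, of which 61 were tested, 5 were higher and 5 lower, where 11.8% and 14.7% of all genes were. Of the 14 S phase and mitosis genes 1 was higher and 5 lower, and of the 10 p53 targets 5 were higher and 0 lower.

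Between the untreated lines, 7 members kept the call they had between the lines with PAE, in both fits. No matching share of all genes was counted. The 2 line comparisons share no library, though they share 1 fit. XPC and ATM were higher in SKOV3/DDP, by 1.39 ± 0.19 and 5.18 ± 0.36 as counted and 1.26 and 1.85 with the trend removed. ATM was at 4.61, 1.28 and 2.71 CPM in SKOV3, 52.8, 49.3 and 58.2 in SKOV3_Pae, 95.8, 108 and 108 in SKOV3/DDP and 71.7, 117 and 92.8 in SKOV3/DDP_Pae. Its 3 SKOV3 values lay far below the other 9, and both groups of SKOV3/DDP lay above SKOV3_Pae. ERCC2, FANCA, FANCG, FANCL and RAD51D were lower in SKOV3/DDP, at -2.31, -2.54, -3.18, -0.73 and -0.70 as counted, and -0.70, -1.80, -1.50, -3.06 and -0.83 with the trend removed. FANCG was at 148, 161 and 142 CPM in SKOV3, 25.5, 30.7 and 27.04 in SKOV3_Pae, 17.5, 12.1 and 20.02 in SKOV3/DDP and 9.91, 10.9 and 11.4 in SKOV3/DDP_Pae. It was highest in SKOV3 and lowest in SKOV3/DDP_Pae, with no overlap between groups. The call of FANCL between the untreated lines was lost without the first SKOV3 library (-0.39) or the first or second SKOV3/DDP library (-0.85 and -0.51), and was -0.02 on library totals. RAD51D was at -0.02 on library totals and -0.21 with the GC trend alone removed, and not called.

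For 14 members the call between the untreated lines was turned round when the GC and length trend was removed. How many of all tested genes were turned round was not counted, so this is not a trait of the members. With the GC trend alone removed, 12 of the 45 members were higher and 16 lower, in place of 10 and 21. XPA, ERCC6, ERCC8, FANCM, BRCA2, PALB2, BRIP1, RAD51C, XRCC2, CHEK1, CHEK2 and MRE11 were higher in SKOV3/DDP as counted and lower with the trend removed, and ERCC1 and DDB2 the reverse. BRCA2 was 2.77 ± 0.33 as counted and -0.74 with the trend removed, and BRIP1 2.27 ± 0.40 and -1.05. FANCM was 1.84 ± 0.37 and -1.42, ERCC8 2.20 ± 0.27 and -1.02, and ERCC6 (CSB), the partner of ERCC8, 2.67 ± 0.26 and -0.60. MRE11 was 2.07 ± 0.33 and -1.03, and CHEK2 0.74 ± 0.20 and -0.70. ERCC6 was at 6.21, 2.81 and 4.07 CPM in SKOV3, 33.6, 35.7 and 39.5 in SKOV3_Pae, 27.8, 28.6 and 26.9 in SKOV3/DDP and 38.5, 38.2 and 46.4 in SKOV3/DDP_Pae. For these members the libraries give no direction between the untreated lines that is independent of how the composition of SKOV3 libraries is treated.

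With PAE in SKOV3, 15 of the 39 members called kept their call with the trend removed. Kept and turned calls were not counted over all genes in this comparison either. The 11 higher were ERCC3, FANCD2, FANCI, BRCA1, PALB2, RAD52, REV1, RAD18, ATM, ATR and TP53BP1, and the 4 lower were ERCC1, ERCC2, DDB1 and FANCG. ATM rose by 4.22 ± 0.35 as counted and 0.79 with the trend removed, and ATR by 3.92 ± 0.25 and 0.62. BRCA1 was at 5.498, 1.19 and 3.31 CPM in SKOV3, 61.5, 52.97 and 72.3 in SKOV3_Pae, 34.1, 32.8 and 25.5 in SKOV3/DDP and 19.9, 15.9 and 35.8 in SKOV3/DDP_Pae. The second SKOV3 library was the lowest of the 12 for BRCA1, and the same 39 members were called without it. For 4 members the call was turned round: FANCL from 1.74 ± 0.32 to -0.88, FANCC from 0.78 ± 0.26 to -1.07, POLH from 0.57 ± 0.20 to -1.32, and CHEK1 from 2.21 ± 0.26 to -0.55. As counted, the call of FANCC was lost without the third SKOV3 library (0.68), and that of POLH without the third SKOV3 or second SKOV3_Pae library (0.54 and 0.48).

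The effect of PAE was then compared between the lines by its interaction term, which also holds the SKOV3 libraries. As counted, the effect was higher in SKOV3/DDP for 8 members and lower for 30 (25.5% and 37.4% of all genes), and for 6 and 15 with the trend removed (18.7% and 21.8%). On library totals the counts were 3 and 33, with no share of all genes counted. The 12 members called lower in both fits were FANCD2, FANCI, BRCA1, BRIP1, RAD52, REV1, RAD18, ATM, ATR, CHEK2, TP53BP1 and RAD50, and DDB1, the adaptor of the damage-binding ligase, and MAD2L2 were called higher in both. DDB1 was at 499, 420.1 and 450.0 CPM in SKOV3, 138, 177 and 184 in SKOV3_Pae, 308, 238 and 258 in SKOV3/DDP and 168, 121 and 244 in SKOV3/DDP_Pae. It was lower with PAE in SKOV3 with no overlap, and the 2 groups of SKOV3/DDP overlapped. XPA, the scaffold that gathers the excision complex, was called with opposite signs (-1.30 ± 0.43 as counted, 1.00 with the trend removed), as were REV3L (-2.56 ± 0.38 and 0.71) and ERCC2 (0.92 ± 0.27 and -0.71). XPA was at 4.08, 2.22 and 3.56 CPM in SKOV3, 11.1, 8.84 and 14.8 in SKOV3_Pae, 7.15, 8.84 and 7.35 in SKOV3/DDP and 9.66, 13.1 and 10.5 in SKOV3/DDP_Pae. Its values were lowest in SKOV3, and the other 3 groups overlapped in part.

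The study's methods name limits for tumour data, p under 0.05 and a log2 change beyond 2 in either direction. They apply the same criteria to the study's sequencing of SKOV3 and SKOV3/DDP. With p taken before adjustment, since the methods do not say, 30 members passed with PAE in SKOV3 (50.2% of all genes). With PAE in SKOV3/DDP 0 passed (7.11%, with 16 members at the unadjusted p alone by edgeR). Between the untreated lines 24 passed (57.3%), between the lines with PAE 6 (24.6%), and for the difference of the PAE effect 26 (45.5%). The 6 were FANCA, FANCC, FANCD2, FANCL, BRIP1 and XRCC2, all lower in SKOV3/DDP_Pae.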

How the data were processed

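RNA of 12 libraries (3 each of SKOV3, SKOV3_Pae, SKOV3/DDP and SKOV3/DDP_Pae, grouped by their labels) was selected with poly-T beads and sequenced. The authors deposited raw read counts per gene. Per the submitters' processing notes HISAT2 2.0.5 and StringTie 1.3.3b were among the tools; the strand and annotation used in counting are not given in the sources used here. Of 47219 loci, 869 have no gene name; they held 0.126% to 0.678% of counts and were left out.

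Counts were tested with edgeR 4.0.16 (R 4.3.3): filterByExpr, TMM factors, 1 quasi-likelihood fit of all 12 libraries with a mean per group, 5 contrasts, and Benjamini-Hochberg adjustment over 17133 genes, called at an adjusted p under 0.05. In a second fit, natural splines with 5 df on GC content and gene length, fitted per library (on genes averaging log2 CPM 2 or more), were entered as offsets; 88.07% of the genes tested and all 45 members had a GC value. DESeq2 1.42.0, limma-voom (limma 3.58.1), library totals, other filters, a replicate block, fewer libraries and the limits of the study's methods were alternatives, and so was the fit without untreated SKOV3, chosen after seeing the data. The fits were tested on simulated data. No 2 libraries of a group agreed within sampling noise.

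The members and gene lists (other pathway genes, S phase and mitosis, p53 targets, cell type markers, motifs) were chosen with earlier results of these data known. Values per library are given for members called alike in both fits with PAE in SKOV3/DDP or between the lines with PAE (at most 3 per sub-pathway by fold change), for the members of highest and lowest GC content per sub-pathway, and for members called with opposite signs in the fits (at most 2 per sub-pathway). Values of ERCC3, ERCC4, FANCF, FANCG, ATM, BRCA1 and DDB1 were added after they were seen.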

Additional observations from a re-analysis of the deposited data

Results flagged for a closer look

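The change with PAE differed between the lines for 38 of the 45 members, by the interaction term of the edgeR fit (adjusted p under 0.05, 3 libraries a group). Of all tested genes, 25.5% were called higher and 37.4% lower in this contrast. With the GC and length trend removed, 6 members were called higher and 15 lower, against 18.7% and 21.8% of all genes. The values are log2, the change in SKOV3/DDP minus the change in SKOV3, and a negative value means that the gene rose less, or fell more, with PAE in SKOV3/DDP. The members with a positive value were MAD2L2 3.03, XRCC3 2.69, FANCG 1.81, FANCE 1.57, ERCC1 1.12, ERCC2 0.92, DDB2 0.89 and DDB1 0.86, of which DDB1 and MAD2L2 were also called higher with the GC and length trend removed, and ERCC2 was called lower.

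The members with a negative value that were also called lower with the trend removed were RAD18 -4.84, BRIP1 -4.74, BRCA1 -4.59, ATM -4.37, FANCD2 -4.17, FANCI -4.10, ATR -4.05, RAD50 -3.92, REV1 -3.67, TP53BP1 -3.30, CHEK2 -2.24 and RAD52 -1.99. The others were BARD1 -4.02, NBN -3.77, BRCA2 -3.75, XRCC2 -3.35, PALB2 -2.92, MRE11 -2.91, RAD23B -2.77, ERCC4 -2.71, ERCC8 -2.57, REV3L -2.56, ERCC6 -2.49, FANCM -2.44, CHEK1 -2.19, FANCL -1.99, RAD51C -1.70, FANCC -1.61, XPA -1.30 and RAD51D -0.73, of which XPA and REV3L were called higher with the trend removed and the rest were not called. The contrast holds the 3 untreated SKOV3 libraries, and their base composition trend and the SKOV3 group cannot be told apart. Groups of 3 libraries are too small for a search for single outlying libraries.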

How the results depend on the processing

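The 64 fold changes of members given as results took 1433 values under the alternatives. Of these 1295 kept their direction and side of the threshold, 75 lost the call, 16 gained one and 47 changed sign. All 47 changes of sign came with a GC trend removed, and 47 fold changes kept direction and call under every other alternative. With PAE in SKOV3, the values with the GC and length trend, with the GC trend alone and with the trend and the replicate block together were, for FANCC -1.07, -0.67 and -1.07, for FANCL -0.88, -1.14 and -0.85, for RAD51C -0.35, -0.37 and -0.35, for POLH -1.32, -0.86 and -1.32, and for CHEK1 -0.55, -0.46 and -0.57. ERCC4 was at -0.012 with the GC and length trend removed. Between the untreated lines they were, for ERCC8 -1.02, -0.65 and -0.99, for FANCM -1.42, -1.21 and -1.42, for BRCA2 -0.74, -0.39 and -0.73, for BRIP1 -1.05, -0.66 and -1.03, for CHEK2 -0.70, -0.99 and -0.70, and for MRE11 -1.03, -0.79 and -1.03. With the GC and length trend removed, and with the block added, ERCC6 was at -0.60 and -0.59 and POLH at -0.19 and -0.17. For the difference of the PAE effect they were, for XPA 1.00, 1.15 and 1.00, for ERCC2 -0.71, -0.96 and -0.71, and for REV3L 0.71, 0.31 and 0.70. On library totals the difference of ERCC2 was 0.21 and lost its call.

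Counts of members called (both directions) with the GC and length trend removed, the GC trend alone removed, and the replicate block with the trend removed were 21, 25 and 22 with PAE in SKOV3 (39 as counted), 14, 14 and 13 with PAE in SKOV3/DDP (8), 31, 28 and 31 between the untreated lines (43), 28, 29 and 28 between the lines with PAE (26), and 21, 20 and 16 for the difference of the PAE effect (38). With 1 library left out they ran from 37 to 39, 3 to 10, 40 to 44, 22 to 27 and 36 to 38 in the same order. Under the limits of the study's methods, with p unadjusted, they were 30, 0, 24, 6 and 26. The count of 0 is by edgeR with both limits, and 16 members had an unadjusted p under 0.05 in that fit. At an adjusted p under 0.05 with no limit on the fold change, edgeR called 8 members, DESeq2 9 and limma-voom 10. The cause of these changes was not tested beyond the construction of each alternative.

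Replicate numbers did not pair the libraries: same-numbered libraries of 2 groups had correlations of their deviations from -0.171 to 0.117 over 18 pairs. The fit with the replicate block called 39, 7, 42, 25 and 36 members in the order above.

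Counts of the members were lowest in untreated SKOV3. The median over the 45 members was 47 to 85 per library there and 309 to 751 elsewhere, and 4 member values lay under 10 counts, all in SKOV3. The SKOV3 libraries held 17310359 to 18263479 counts in total, and those of the other groups 14610008 to 17456185.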
